A study of Mus musculus with 50 samples.

Results

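DNA methylation was compared between the soleus of wild-type (WT) mice killed 60 min after a bout of treadmill running and the soleus of WT mice at rest. The members were the samples labelled WT at these times that had counts, which gave 6 samples at 60 min and 5 at rest. These were 11 of the 44 samples with counts in a series of 50. The soleus is a slow, weight-bearing muscle of the lower leg, and each sample was the DNA of 1 muscle. All mice were C57BL/6, 12 weeks of age and carried the floxed Dnmt3a allele without a Cre transgene, so that the WT animals differ from unmodified mice by the loxP sites. The exercised mice ran for 30 min at 16 m/min on an incline of 5%, and the rested mice spent 30 min on a sham treadmill. At 60 min there were 3 females (samples 4, 22 and 25) and 3 males (samples 9, 16 and 18), and at rest 2 females (samples 1 and 20) and 3 males (samples 11, 13 and 14). The KO mice used beside them below had the same floxed allele and a Cre under the promoter of muscle creatine kinase (mCK), which acts in muscle fibres and heart.

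In mammals a methyl group is carried mainly by cytosines that stand before a guanine (CpGs). It is placed by DNA methyltransferases, copied at cell division by Dnmt1, and can be removed by oxidation through TET enzymes. CpG-rich promoters of active genes are usually free of it, while gene bodies and the DNA between genes usually carry it. The nuclei of muscle fibres do not divide, and brief losses of methylation at promoters of metabolic genes have been described after contraction, which is the question this comparison addresses. The level of a CpG in a whole muscle is a mean over all its nuclei, so that a change in the share of a cell type and a change within a cell type cannot be told apart.

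Methylation was read by reduced representation bisulfite sequencing (RRBS). Neighbouring CpGs at most 100 bp apart had been grouped into clusters by the authors. The level is the share of calls that were methylated, in percent. Stretches of 6 clusters that the results below turn on are given here as the forward strand of GRCm38 (mm10), with the CpGs that were measured in capitals and 10 bases added on each side. The stretches of Ptpn3 (chr4:57279252-57279294), Bcl9l (chr9:44485628-44485708) and Habp4 (chr13:64162726-64163019) are shown because the values of rest and 60 min did not overlap there. Mak (chr13:41056798-41056866) is shown because its cluster had the lowest p-value among those named as lower at 60 min. Ndrg4 (chr8:95675055-95675110) and Sdsl (chr5:120472850-120472930) are shown because their clusters lay in promoters.
Ptpn3: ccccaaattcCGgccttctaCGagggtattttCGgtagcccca
Bcl9l: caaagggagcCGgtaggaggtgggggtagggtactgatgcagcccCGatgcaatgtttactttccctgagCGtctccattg
Habp4: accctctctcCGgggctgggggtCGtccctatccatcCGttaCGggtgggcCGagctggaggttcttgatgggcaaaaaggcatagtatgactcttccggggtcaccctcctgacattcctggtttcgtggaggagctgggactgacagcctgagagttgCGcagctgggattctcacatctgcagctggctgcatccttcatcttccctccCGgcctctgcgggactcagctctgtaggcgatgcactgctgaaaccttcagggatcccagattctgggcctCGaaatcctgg
Mak: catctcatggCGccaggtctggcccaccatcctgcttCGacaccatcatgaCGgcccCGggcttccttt
Ndrg4: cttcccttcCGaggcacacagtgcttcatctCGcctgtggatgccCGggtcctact
Sdsl: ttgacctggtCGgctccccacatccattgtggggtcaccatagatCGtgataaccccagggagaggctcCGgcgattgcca
The files list 16.5% of CpGs at the G, so that some positions stand 1 base to the right of the capital C. Each stretch held at least 1 CCGG, the site that the enzyme MspI cuts in RRBS. In Habp4, 8 of 12 CpGs were measured, in Sdsl 3 of 4, and in the remaining 4 stretches every CpG was.

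The table held 205304 CpGs of the 19 autosomes with at least 8 calls in each of the 44 samples. The 11 samples had 13.0 to 24.2 megacalls each, and the median CpG had 50 to 92 calls. The mean was 20.0 ± 4.55 megacalls at rest (SD, n = 5) and 17.6 ± 3.97 megacalls at 60 min (SD, n = 6), a difference within the spread between samples (exact permutation test, two-sided, p = 0.368). The 5 females had 13.0 to 16.9 megacalls and the 6 males 18.2 to 24.2 megacalls, so that depth went with sex. Independent calls from equal muscles give a chi-square near 1 per CpG, and pairs of samples gave 6.60 to 13.0, within groups as well as between them. PCR copies are not told apart in RRBS, so that several calls can come from 1 molecule.

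Methylation over the measured genome did not differ detectably between 60 min and rest. Taken as the unweighted mean over CpGs, the level at rest was 26.3% in sample 1, 25.0% in sample 11, 24.4% in sample 13, 25.7% in sample 14 and 25.9% in sample 20. At 60 min it was 25.5% in sample 4, 26.0% in sample 9, 25.0% in sample 16, 24.9% in sample 18, 24.5% in sample 22 and 26.4% in sample 25. The ranges of both groups covered almost the same values. The means were 25.5% ± 0.765 at rest (SD, n = 5) and 25.4% ± 0.726 at 60 min (SD, n = 6), a difference of -0.10 percentage points (exact permutation test, two-sided, p = 0.827, where 0.00433 is the smallest p that the 462 arrangements can give). Pooled over all calls, the level was 30.5% ± 5.85 at rest and 29.4% ± 3.37 at 60 min, and the difference of -1.16 points was likewise smaller than the spread (exact permutation test, p = 0.706). The pooled level, in which each CpG weighs by its calls, varied more between samples than the unweighted one. Within the sexes the pooled difference was -6.67 points in females and 2.63 points in males, and the unweighted difference -0.63 and 0.218 points, so that its sign was not the same in both. The share of CpGs at 0% was 51.3% ± 1.72 at rest and 52.8% ± 2.30 at 60 min (exact permutation test, p = 0.268), and the share above 80% was 15.9% ± 0.352 and 15.7% ± 0.558 (exact permutation test, p = 0.532).

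**Figure D1:**
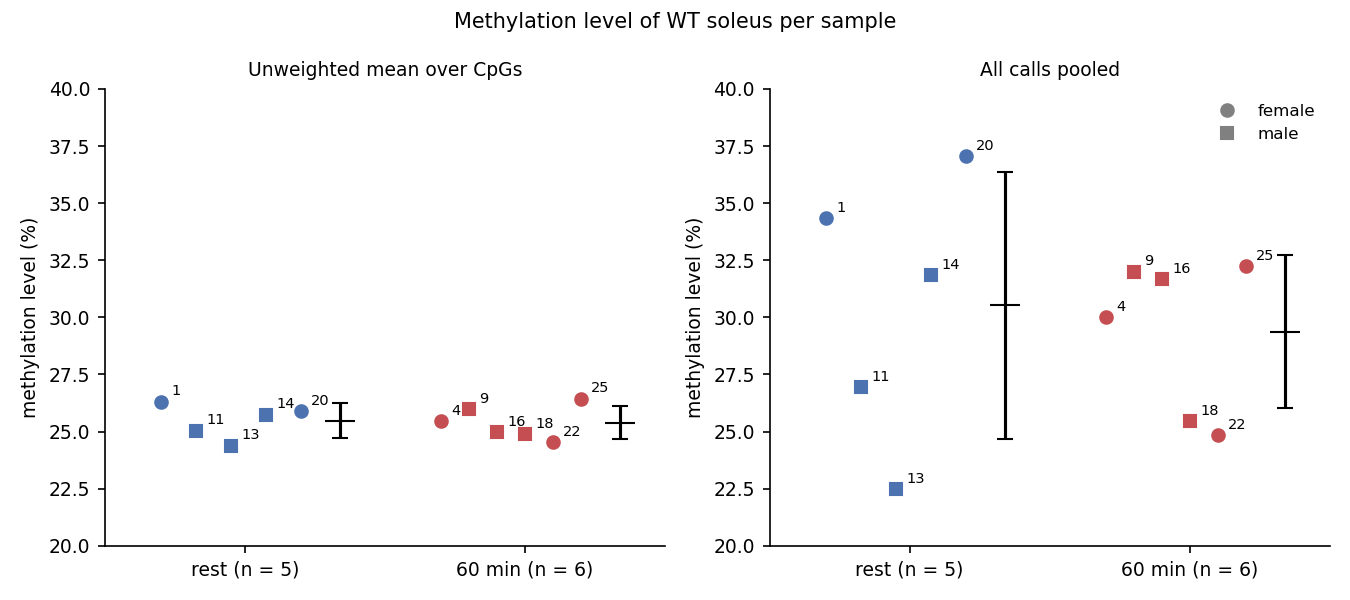
Methylation level (%) of each WT sample at rest and at 60 min, as the unweighted mean over CpGs and with all calls pooled. Points are samples with their numbers, circles females and squares males, and the black bars are the mean and SD of each group. The vertical axes start at 20%. The unweighted levels lie between 24.4% and 26.4% in both groups, while the pooled levels spread from 22.5% to 37.1%.

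The CpGs were also divided by position. Levels followed the known distribution of the mark, and no context differed between the groups. CpG islands, the CpG-dense stretches that cover many promoters, held 67.5% of the CpGs and had a level of 11.2% ± 0.328 at rest (SD, n = 5) and 11.2% ± 0.252 at 60 min (SD, n = 6). Their shores had 46.2% ± 1.66 and 46.0% ± 1.56, and the open sea beyond them 62.2% ± 1.69 and 61.9% ± 1.84. Open sea CpGs thus carried several times the level of islands in each sample, whether rested or exercised. CpGs in promoters had 3.46% ± 0.145 at rest and 3.43% ± 0.132 at 60 min, those in gene bodies 19.8% ± 0.667 and 19.8% ± 0.577, and those in neither 50.9% ± 1.32 and 50.7% ± 1.38. The 6 differences ranged from -0.31 to -0.0228 points (exact permutation tests, unadjusted p from 0.764 to 0.905, all with an adjusted p = 0.905). For promoters the range over samples was 3.24% to 3.61% at rest and 3.24% to 3.58% at 60 min.

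The samples were then placed by principal components of the fractions of all CpGs. The first component, with 14.1% of the variance, was set by 1 rested male, sample 13, whose score was 53.3 while the other rested samples lay between -13.3 and -4.34 and the 60 min samples between -15.2 and 6.33. The second, with 12.9%, was set by another rested male, sample 11, at 52.7, the remaining 10 samples lying between -12.8 and 2.26. Apart from these rested males, samples of both groups and sexes lay together. The mean scores of 60 min and rest differed by 7.30 on the first component (exact permutation test, two-sided, p = 0.801) and by 14.6 on the second (exact permutation test, p = 0.0563). With sample 13 left out and the components computed again, the difference on the first was 17.7 (exact permutation test, p = 0.0476), and that on the second was 21.3 without sample 1 (p = 0.019), 20.3 without sample 20 (p = 0.0333) and 17.7 without sample 9 (p = 0.0397, all exact permutation tests). Without each of the other samples p on the second lay above 0.05, among them 14.1 without sample 11 itself (p = 0.267), 6.46 without sample 13 (p = 0.705), 12.7 without sample 22 (p = 0.333) and 13.8 without sample 18 (p = 0.183, all exact permutation tests). Components computed again are new axes, so that the first or second without a sample need not be that of all samples. The p-values of these refits are unadjusted. Clusters that lay over 20 points outside all other samples numbered 1075 in sample 13, 888 in sample 22 at 60 min and 860 in sample 11, against 97 in sample 14, the lowest. Over pairs of samples, the mean absolute difference of cluster levels had a median of 11.4 points between the groups, 11.4 within 60 min and 11.8 within rest. By these medians an exercised and a rested muscle were no further apart than muscles of 1 group. The median within rest leans on samples 11 and 13. Rested pairs without them were 9.63 (samples 1 and 14), 10.3 (1 and 20) and 9.37 points (14 and 20) apart. Samples 1, 14 and 20 lay 8.79 to 12.2 points from the exercised samples.

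**Figure D2:**
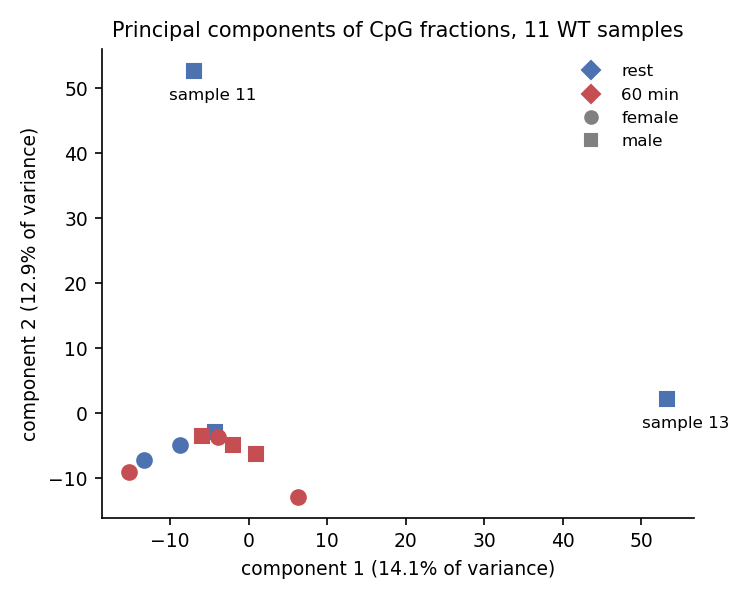
Scores of the 11 WT samples on the first and second principal components of the centred CpG fractions, with the share of variance on each axis. Colour gives the group, circles are females and squares males. Samples 13 and 11, both males at rest, stand alone at 53.3 on the first and 52.7 on the second component, and the remaining samples of both groups lie together.

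Local methylation was tested in 51038 clusters. With the edgeR quasi-likelihood test, 0 clusters (0% of those tested) had an adjusted p under 0.05, the lowest adjusted p being 1. An unadjusted p under 0.05 was found at 1871 clusters (3.67%), of which 1021 (2%) were lower and 850 (1.67%) higher at 60 min, where 2552 would be found with no effect at all. The same was true of larger and smaller units. Of 9761 promoters 0 were called (0%, with 393 or 4.03% at an unadjusted p under 0.05), of 12391 gene bodies 0 (0%, with 489 or 3.95%) and of 205304 single CpGs 0 (6820 or 3.32%, lowest adjusted p = 0.901 in edgeR). Limma on log2 ratios of methylated to unmethylated counts called 0 in each of these, with 2576 clusters (5.05%), 464 promoters (4.75%), 537 gene bodies (4.33%) and 8933 CpGs (4.35%) at an unadjusted p under 0.05. The likelihood ratio test in edgeR, which takes 1 dispersion as known for every feature, called 53 clusters, 3 promoters (0.0307%), 131 gene bodies (1.06%) and 0 CpGs. Of its 53 clusters (0.104%) 30 were lower and 23 higher at 60 min, 36 held 1 CpG, and their quasi-likelihood p-values ran from 7.23e-05 to 0.0213. No cluster, promoter or gene body was called in the quasi-likelihood test when samples 11 and 13 were left out.

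The size of the differences and their precision were described next, since a count of 0 does not show that levels were equal. The median cluster differed by -0.0345 points between 60 min and rest, with quartiles of -3.24 and 2.82 points. At the median cluster the SD between samples was 8.13 points at rest and 8.36 at 60 min, larger than the typical difference. The 95% interval of a cluster's difference (limma, from the spread between samples of all 8 groups) extended a median of 11.8 points to each side. It lay within 10 points of 0 on both sides at 32.4% of clusters and within 20 points at 62.3%. Promoters were measured far more tightly. Their intervals extended a median of 1.45 points to each side, and at 74.2% of promoters they lay within 5 points of 0 and at 84.5% within 10. For gene bodies the median was 6.13 points, and 57.4% lay within 10. Precision followed the level itself. Clusters with a mean level under 5% had a median SD of 0.858 points at rest and an interval of 1.59 points to each side, while those between 20% and 80% had 14.1 and 18.3 points. Changes of a few points at sites of intermediate methylation were thus not detectable with these samples.

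**Figure D3:**
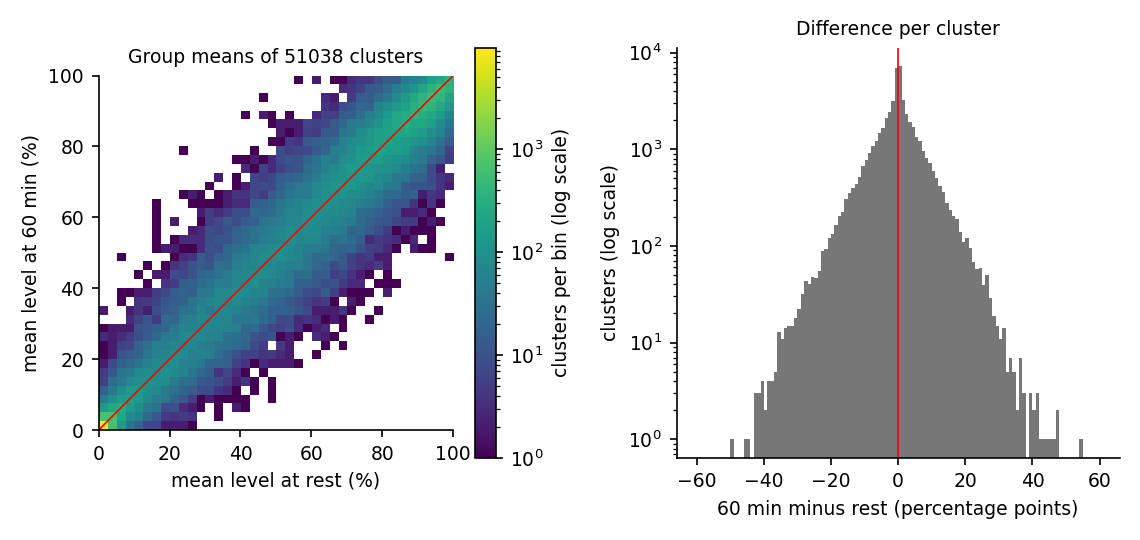
Left, mean level at 60 min against mean level at rest (%) of 51038 clusters, in small bins coloured by the number of clusters (log scale), with the line of equality in red. Right, the number of clusters (log scale) by the difference between 60 min and rest in percentage points. The clusters lie on both sides of the line, 0 are called by the quasi-likelihood test, and the median difference is -0.0345 points.

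Since nothing passed the test, clusters were named by their unadjusted p-value, the 8 lowest in each direction among 2070 clusters with at least 3 CpGs, 30 calls in each sample, a difference of 5 points or more and an assigned gene. These 16 were picked for their difference in these samples, so that their values are a description, and all had an adjusted p = 1 in the edgeR quasi-likelihood test. Of the 2070, 9.32% had an unadjusted p under 0.05, a share raised by the choice of large differences. The groups did not overlap at 4 of the 16, against 177 of all 51038 clusters (0.347%, with 0.192% lower and 0.155% higher at 60 min). In all 16 the direction was the same in females and males, and 64 of their 70 CpGs went the way of the cluster. CpGs of a cluster share reads and are not independent.

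Among the clusters with lower levels at 60 min, Mak, which encodes a kinase of cilia and male germ cells, had 4 CpGs of an island in an intron (chromosome 13, 41056808 to 41056856, 88 to 289 calls per sample). Its level at rest was 84.1%, 93.8%, 91.0%, 87.2% and 99.0% in samples 1, 11, 13, 14 and 20. At 60 min it was 84.5%, 78.2%, 63.3%, 70.9%, 77.0% and 76.5% in samples 4, 9, 16, 18, 22 and 25. Sample 4 lay just above the lowest rested sample, and the other exercised samples lay below every rested one. The means were 91.0% ± 5.78 at rest (SD, n = 5) and 75.1% ± 7.23 at 60 min (SD, n = 6), a difference of -15.9 points (95% interval -26.0 to -5.83), with a log2 odds ratio of -1.91 (SE 0.577) and an unadjusted p = 0.00194 in edgeR.

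Ndrg4, a gene of the N-myc downstream regulated family best known from brain and heart, had the largest difference of the named clusters that were lower. Its 3 CpGs (chromosome 8, 95675065 to 95675100, 43 to 252 calls) lay in a shore 1880 bp from the transcription start, within its promoter as assigned by the authors and within the processed pseudogene Gm6013, so that reads could be shared with the parent gene of that copy. The level was 56.1% to 87.4% at rest and 26.4% to 67.8% at 60 min, where samples 22, 25 and 4, the females, had 26.4%, 31.1% and 32.6%. The groups overlapped through the exercised male sample 18. The mean was 71.6% ± 13.1 at rest (SD, n = 5) and 42.8% ± 16.1 at 60 min (SD, n = 6), a difference of -28.9 points (95% interval -46.2 to -11.5), or -47.1 points in females and -12.5 in males.

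Habp4, which encodes a protein that binds hyaluronan and RNA, was the cluster with lower levels whose groups did not overlap. Its 8 CpGs lay in a shore in an intron, 912 bp from the start and within the promoter window (chromosome 13, 64162736 to 64163009), and they rested on 358 to 1398 calls per sample, the deepest of the 16. At rest the level was 32.1%, 22.4%, 15.6%, 22.4% and 14.3% in samples 1, 11, 13, 14 and 20. At 60 min it was 11.2%, 5.69%, 7.22%, 5.71%, 11.4% and 10.8% in samples 4, 9, 16, 18, 22 and 25. Each exercised sample lay below each rested one, and all 8 CpGs were lower on average. The means were 21.4% ± 7.08 (SD, n = 5) and 8.67% ± 2.76 (SD, n = 6), a difference of -12.7 points (95% interval -18.3 to -7.06). By CpG, the difference ran from -0.496 points at the last to -19.2 at the fifth, which went from 20.1% ± 11.8 to 0.926% ± 2.27.

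The remaining 5 with lower levels spanned the whole range of methylation. Exonic CpGs of Dpf3, a subunit of a chromatin remodelling complex of heart and muscle, were almost fully methylated at rest (96.8% ± 3.82, against 87.0% ± 11.0 at 60 min), and sample 16 alone had 65.6%. A cluster in an intron of Serpina1b, a serine protease inhibitor made by the liver, had 91.1% ± 4.87 and 79.1% ± 9.49. Intronic CpGs of Ptp4a3, a phosphatase anchored at membranes, had 17.6% ± 12.4 and 3.11% ± 4.23, and an exon of Lefty2, an inhibitor of Nodal signalling, had 7.75% ± 4.10 and 2.22% ± 3.09. The fifth lay in the promoter of Sympk, a scaffold of messenger RNA processing, and in the 5′ end of Foxa3, a transcription factor of the liver, with 21.8% ± 9.20 and 10.2% ± 5.27. All SDs are over n = 5 at rest and n = 6 at 60 min, and in these 5 the groups overlapped.

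Ptpn3, which encodes a tyrosine phosphatase of the membrane cytoskeleton, had the lowest p-value of the named clusters. The 3 CpGs lay in open sea in an intron (chromosome 4, 57279262 to 57279284, 45 to 266 calls per sample). At rest the level was 3.45%, 0.889%, 0%, 5.38% and 0% in samples 1, 11, 13, 14 and 20. At 60 min it was 20.9%, 16.5%, 35.6%, 31.4%, 22.2% and 76.8% in samples 4, 9, 16, 18, 22 and 25. Each exercised sample was above each rested one, and sample 25 stood far above the rest of its group. The means were 1.94% ± 2.38 (SD, n = 5) and 33.9% ± 22.2 (SD, n = 6), a difference of 32.0 points (95% interval 15.1 to 48.8), with a log2 odds ratio of 5.17 (SE 1.25). The edgeR quasi-likelihood test gave an unadjusted p = 0.00018 and an adjusted p = 1, and the likelihood ratio test an adjusted p = 0.00852. All 3 CpGs were higher, by 33.9, 15.4 and 46.8 points, on 15 to 89 calls each.

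Cacna1c encodes the pore of the L-type calcium channel of heart and smooth muscle. Its 8 CpGs lay in an island over an exon, 3 of them in an untranslated region (chromosome 6, 118593871 to 118593937, 168 to 877 calls per sample). The level was 4.35%, 3.54%, 1.19%, 0% and 0% in the rested samples 1, 11, 13, 14 and 20. It was 29.2%, 29.0%, 12.5%, 46.5%, 16.7% and 22.1% in the exercised samples 4, 9, 16, 18, 22 and 25. The groups did not overlap, all 8 CpGs were higher, and the means were 1.82% ± 2.02 (SD, n = 5) and 26.0% ± 12.0 (SD, n = 6). The difference was 24.2 points (95% interval 4.47 to 43.9), with an unadjusted p = 0.00623 in the quasi-likelihood test and an adjusted p = 0.00895 in the likelihood ratio test of edgeR. KO mice at rest had 20.6% at this cluster and KO mice at 60 min 9.94%, so that the rested WT samples were the low ones.

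Bcl9l, a co-activator of beta-catenin in Wnt signalling, was the third of the higher clusters without overlap. It had 3 CpGs of a shore in an intron, 2813 bp from the start (chromosome 9, 44485638 to 44485698, 142 to 395 calls). The level lay between 0.526% and 2.17% at rest and between 3.74% and 14.1% at 60 min, with means of 1.24% ± 0.633 (SD, n = 5) and 9.45% ± 4.41 (SD, n = 6). In KO mice it was 7.03% at rest and 5.12% at 60 min.

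The other 5 with higher levels at 60 min overlapped between the groups, and 4 of them are described. In Scn8a, a sodium channel of nerve and muscle, 4 shore CpGs of an intron had 68.4% ± 6.70 at rest and 86.1% ± 7.01 at 60 min. An exon of Ulk4, a member of a kinase family of autophagy, had 75.5% ± 3.65 and 92.8% ± 9.04. The promoter of Sdsl, a serine dehydratase, had 50.8% ± 8.49 and 70.2% ± 13.6. In an untranslated region of Ttc39b, a gene of lipid metabolism, every rested sample was at 0%, with 0 of 1677 calls over the group, which allows a level of up to 0.179%. At 60 min samples 9, 18, 4 and 16 had 19.0%, 5.11%, 3.73% and 2.25%, and samples 22 and 25 also 0%. Such limits cover counting error only. All SDs are over n = 5 and n = 6.

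**Figure D4:**
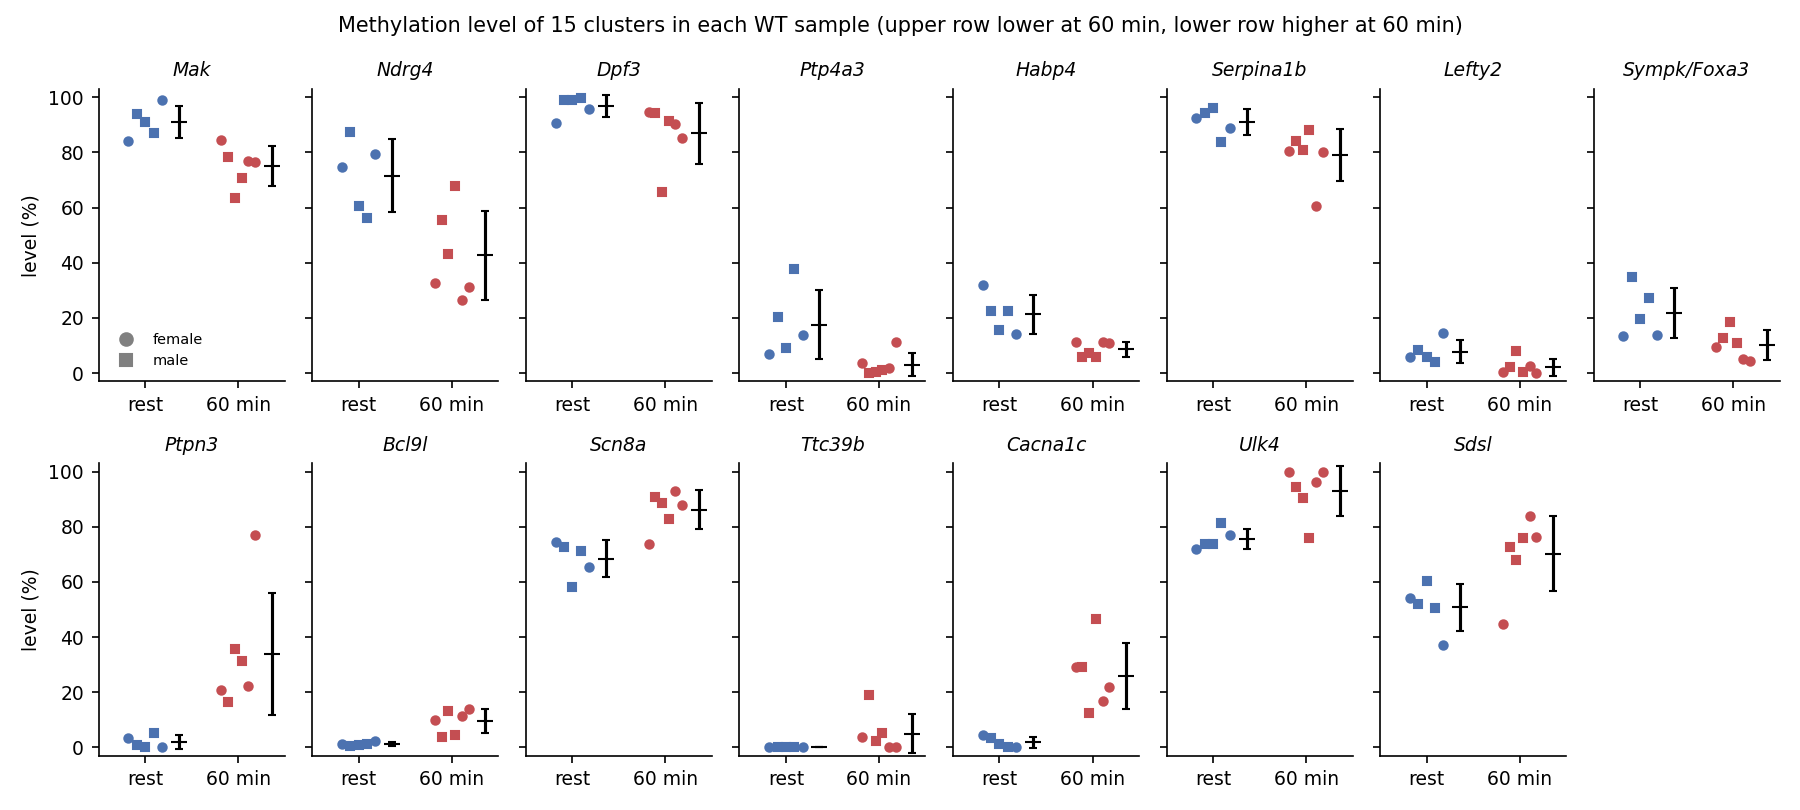
Methylation level (%) in each WT sample of 15 of the 16 named clusters, the 8 lower at 60 min above and 7 of those higher below. Circles are females and squares males, and the black bars are mean and SD (n = 5 at rest, n = 6 at 60 min). Rest and 60 min do not overlap at Habp4, Ptpn3, Bcl9l and Cacna1c. The clusters were chosen by their p-value in these samples, and all have an adjusted p of 1 in the quasi-likelihood test.

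Whole promoters were compared in the same way, 3 of lowest p in each direction. Groups did not overlap at 31 of 9761 promoters (0.318%), 20 of them lower (0.205%) and 11 higher (0.113%) at 60 min. Among the named, the promoter of Luc7l3, a splicing factor, rested on 1 CpG (chromosome 11, 94321448) with 12.2%, 1.40%, 0.671%, 7.47% and 1.39% in the rested samples 1, 11, 13, 14 and 20 and 0% in each sample at 60 min. There 0 of 801 calls were methylated, which allows up to 0.375%. Zfp84, a zinc finger gene, and G6pc3, a phosphatase of glucose phosphate in the endoplasmic reticulum, were also at 0% in each sample at 60 min (0 of 2418 calls, allowing up to 0.124%, and 0 of 3108, allowing up to 0.0965%) and had means of 2.11% ± 2.25 and 2.48% ± 2.39 at rest (SD, n = 5). At least 1 rested sample of each was at 0% too. In the other direction Lrrc4c, a synaptic adhesion gene, Scrn2 and Fam131b were at 0% in each rested sample and had 11.8% ± 8.40, 3.61% ± 3.89 and 2.55% ± 2.38 at 60 min (SD, n = 6). Counts over the rested group were 0 of 624, 0 of 2498 and 0 of 2473 calls, allowing up to 0.481%, 0.12% and 0.121%. Exercised samples were at 0% too, sample 25 for Lrrc4c, samples 4 and 16 for Scrn2 and samples 22 and 25 for Fam131b. In edgeR the unadjusted p-values of these 6 ran from 0.00044 to 0.00106, and all adjusted p-values were 1. The likelihood ratio test passed Lrrc4c, Scrn2 and Fam131b (adjusted p = 0.0246, 0.0331 and 0.0474).

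For gene bodies the groups did not overlap at 40 of 12391 (0.323%). Tlx3, a homeobox gene of neurons, had 9 CpGs (chromosome 11, 33200918 to 33201649, 577 to 1095 calls) at 4.16%, 4.10%, 4.03%, 2.82% and 2.75% in the rested samples 1, 11, 13, 14 and 20. At 60 min they were at 0.508%, 0.274%, 1.46%, 0.297%, 0.173% and 1.18% in samples 4, 9, 16, 18, 22 and 25. No exercised sample reached a rested one, with means of 3.57% ± 0.722 (SD, n = 5) and 0.65% ± 0.54 (SD, n = 6), a difference of -2.92 points (95% interval -4.20 to -1.64). Usp20, a deubiquitinase, had 96.8% ± 4.33 and 71.3% ± 15.2 at 2 CpGs, and the only CpG of Luc7l3 was that of its promoter. Higher at 60 min were Adh1, an alcohol dehydrogenase, at 1 CpG (71.8% ± 22.9 and 97.2% ± 2.55, without overlap), Zfp397 (0.0833% ± 0.0599 and 1.80% ± 1.60) and Atad1, an ATPase of the outer mitochondrial membrane (0% in each rested sample, 0 of 1982 calls allowing up to 0.151%, and 1.81% ± 1.62 at 60 min). Sample 25 at 60 min was also at 0% for Atad1. For these gene bodies too every adjusted p was 1 in the quasi-likelihood test, while the likelihood ratio test gave adjusted p-values from 0.00119 to 0.0299.

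Promoters of genes that answer exercise with more RNA were examined by name. Of 8 such genes, 4 had measured promoter CpGs, and all 4 were almost unmethylated at rest and at 60 min. Nr4a3, an orphan nuclear receptor induced early by contraction, had 22 CpGs (chromosome 4, 48042925 to 48046111, 942 to 2364 calls) at 0.543% ± 0.552 at rest (SD, n = 5) and 0.868% ± 0.674 at 60 min (SD, n = 6), with a 95% interval of the difference of -0.391 to 1.04 points. Hk2, the muscle hexokinase, had 0.943% ± 0.912 and 0.829% ± 0.657 at 15 CpGs (interval -0.907 to 0.68). Mef2a, a transcription factor of muscle genes, had 0.36% ± 0.39 and 0.509% ± 0.613 at 15 CpGs (interval -0.578 to 0.876). Tfam, which maintains mitochondrial DNA, had 0.408% ± 0.913 and 0.18% ± 0.318 at 3 CpGs (interval -2.53 to 2.07). No mean level at rest exceeded 1%, which leaves almost no room for a loss. Promoter CpGs of Ppargc1a, Pdk4, Ppard and Atf3 were not analysed here. Of Atf3, a stress-induced transcription factor, a cluster of 3 CpGs away from the promoter had 70.1% ± 6.38 and 77.9% ± 9.00 (interval -4.07 to 19.8).

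Gene lists of 11 kinds widened this view, with 167 promoters of 303 genes. None passed the adjusted test, and 6 (3.59%) had an unadjusted p under 0.05, 3 of them lower and 3 higher at 60 min, beside 4.03% of all promoters (2.27% lower and 1.75% higher). The 95% interval lay within 5 points of 0 at 116 of the 167 and within 10 points at 137, and 127 had a level under 5% at rest. The median difference was -0.0485 points. The largest by size were those of the imprinted Peg10 (-17.5 points) and of the smooth muscle myosin Myh11 (13.3 points), each from 1 CpG.

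The early response genes, transcription factors and feedback genes induced within minutes of contraction, gave 32 promoters of 41 genes. By the odds of methylation 15 were lower (46.9%, against 52.1% of all promoters) and 17 higher. The median difference was 0.0596 points, and at 28 the interval lay within 5 points. Egr3, a zinc finger factor of muscle spindles, had the lowest p of them (unadjusted p = 0.00988 in edgeR). Its 12 CpGs (chromosome 14, 70075229 to 70078097) were at 0%, 0.257%, 0.0599%, 0.189% and 0.127% in samples 1, 11, 13, 14 and 20, and at 0.378%, 0.425%, 1.20%, 2.50%, 2.61% and 0.358% in samples 4, 9, 16, 18, 22 and 25. The groups did not overlap, yet the difference was 1.12 points (95% interval 0.236 to 2.00). Of 76 clusters of the list 2 had an unadjusted p under 0.05, both lower at 60 min, next to 3.67% of all. They were a cluster of Ier2 (2.52% ± 2.55 at rest, 0 of 680 calls at 60 min, allowing up to 0.441%) and one of Gadd45g, a gene of DNA damage signalling (3.53% ± 4.26 at rest, 0 of 567 calls, allowing up to 0.529%). In both, 2 of the 5 rested samples were at 0% as well.

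Of the metabolic genes of the exercise response, 27 promoters of 42 genes were measured, 16 lower (59.3%, against 52.1% of all promoters) and 11 higher, with a median difference of -0.114 points. At an unadjusted p under 0.05 there was 1, lower at 60 min (3.7%, against 4.03% of all). That promoter was Slc16a3, the lactate exporter (3.05% ± 2.50 and 0.675% ± 1.65). Of 98 clusters of the list, 3 were lower and 1 higher at an unadjusted p under 0.05, a share of 4.08% near the 3.67% of all clusters. Esrrg, an oestrogen-related receptor of oxidative muscle, had 4 CpGs (chromosome 1, 187651257 to 187652337, 237 to 642 calls) at 22.8%, 16.2%, 12.3%, 9.64% and 12.4% in samples 1, 11, 13, 14 and 20. At 60 min they were at 9.19%, 8.93%, 3.25%, 2.46%, 0.803% and 9.43% in samples 4, 9, 16, 18, 22 and 25, so that the groups narrowly missed each other. The difference was -8.98 points (95% interval -14.3 to -3.62). Ppargc1b, a co-activator of mitochondrial genes, had 1 CpG in its gene without overlap (39.0% ± 26.1 and 7.54% ± 5.36), and Tbc1d4, a regulator of glucose transporter traffic, had 88.6% ± 2.02 and 93.9% ± 2.86 at 4 CpGs. SDs are over n = 5 at rest and n = 6 at 60 min.

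The skeletal muscle fibre genes, which encode the contractile apparatus, gave 16 promoters, 10 lower (62.5%, against 52.1% of all promoters) and 6 higher. An unadjusted p under 0.05 was found at 1 of them (6.25%, against 4.03% of all). Actn2, an actinin of the Z-disc, had 8 promoter CpGs (chromosome 13, 12340337 to 12340480, 259 to 1170 calls) at 4.28%, 2.31%, 5.93%, 4.28% and 2.20% in samples 1, 11, 13, 14 and 20. They were at 0.404%, 0.398%, 0.631%, 1.20%, 1.63% and 0% in samples 4, 9, 16, 18, 22 and 25. The groups did not overlap, and the difference was -3.09 points (95% interval -4.54 to -1.64, unadjusted p = 0.00668 in edgeR). Of 100 clusters of the list 1 was lower and 4 higher at an unadjusted p under 0.05, 5% against 3.67% of all. The higher ones named by the rule were a CpG of titin (Ttn, 74.9% ± 16.0 and 98.4% ± 4.05) and a pair of CpGs of the fast myosin Myh2 (50.7% ± 16.6 and 85.1% ± 20.0).

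Myogenic and satellite cell genes had 11 promoters, 2 lower (18.2%, against 52.1% of all promoters) and 9 higher. Their median difference was 1.23 points and their median level 1.98% at rest. An unadjusted p under 0.05 in edgeR was found at 1 of the 11 (9.09%, against 4.03% of all). Whether the split of a list differs from that of all promoters was not tested. Six4, a homeobox factor of myogenesis, had 13 CpGs at 0.781% ± 1.28 and 2.22% ± 0.493 (difference 1.44 points, 95% interval 0.371 to 2.50), where sample 13 at rest, with 3.07%, exceeded every exercised sample. A cluster of Meox1, a homeobox gene of somites, had 21.7% ± 7.09 and 7.00% ± 4.18 without overlap. Clock genes had 17 promoters, 10 lower (58.8%) and 7 higher, and at all 17 the interval lay within 5 points. Stress, antioxidant and myokine genes had 25 promoters, 17 lower (68%) and 8 higher, with 1 (4%) at an unadjusted p under 0.05. Hspa8, a constitutive chaperone, had the lowest p of them (0.501% ± 0.127 and 0.167% ± 0.167 at 25 CpGs). Genes of DNA methylation itself had 12 promoters, 6 lower and 6 higher, none at an unadjusted p under 0.05. The promoter of Dnmt3a was at 0.351% ± 0.595 and 0.255% ± 0.626. Imprinted genes, in which 1 parental copy is methylated, had 11 promoters with a median level of 26.4% at rest and 27.2% at 60 min. Of these 7 were lower (63.6%) and 4 higher. A cluster of 12 CpGs of Plagl1 had 24.3% ± 10.1 and 42.2% ± 9.15. SDs are over n = 5 at rest and n = 6 at 60 min.

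Markers of the cell types a whole soleus can hold were examined at their promoters, although methylation at a promoter is no measure of how many such cells were present. Of 8 markers of muscle fibres only Acta1 had a promoter CpG (12.1% ± 7.25 at rest, 3.06% ± 4.90 at 60 min), and of 5 blood markers only Csf1r (64.0% ± 9.52 and 64.1% ± 14.0). Pdgfra of fibroblasts had 0 of 276 calls at rest, allowing up to 1.09%, and 0.412% ± 1.01 at 60 min, while no defining endothelial or fat marker had one. The wider lists had 2 promoters of blood and immune, 8 of endothelial and smooth muscle (4 lower, 4 higher) and 6 of fibroblast, fat and Schwann genes (2 lower, 4 higher). Of all promoters 52.1% were lower. In these lists Myh11 alone had an unadjusted p under 0.05 (1 of the 8 endothelial and smooth muscle promoters, or 12.5%, against 4.03% of all). Of 30 clusters of blood and immune genes 21 were lower at 60 min (70%, against 51.5% of all clusters), and 3 had an unadjusted p under 0.05 (10%, against 3.67% of all). Of these 3, a CpG of the integrin Itgam (81.9% ± 19.7 and 50.9% ± 12.1) and a cluster of Runx1, a transcription factor of blood formation (85.2% ± 6.94 and 70.8% ± 8.71), were lower. The third, named after its values were seen, was another cluster of Runx1 with 6 CpGs and was higher at 60 min (30.2% ± 15.7 and 57.8% ± 16.0). A part of blood cells in the values above was not tested. SDs are over n = 5 at rest and n = 6 at 60 min.

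**Figure D5:**
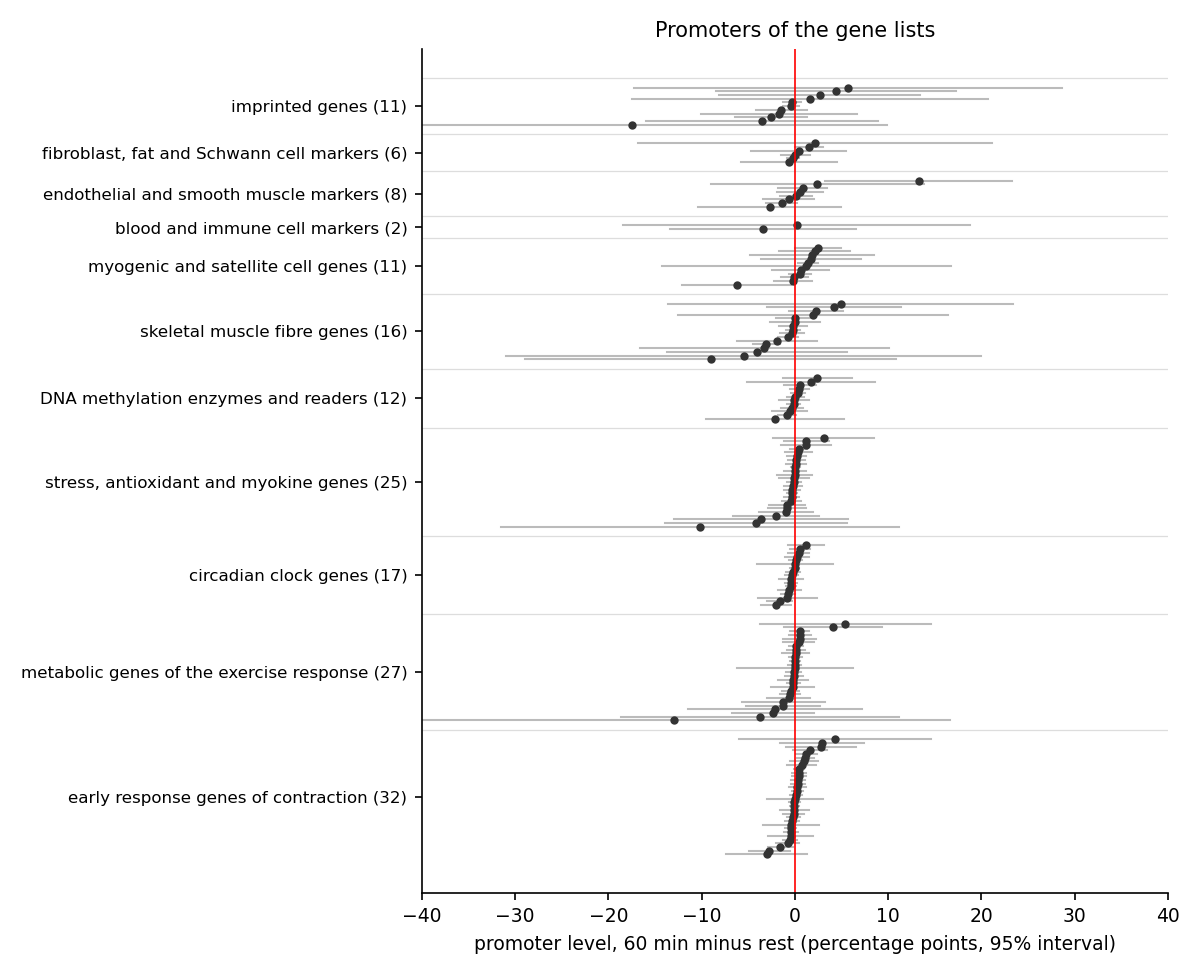
Difference in promoter level between 60 min and rest (percentage points) of 167 promoters in 11 gene lists, with 95% intervals in grey and the number of promoters in brackets. The horizontal axis runs from -40 to 40 points, and 2 intervals extend past it. At 116 of the 167 promoters the interval lies within 5 points of 0.

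The differences at 60 min were set beside those of KO mice, whose rested and exercised samples (5 and 6) share none with WT. Dnmt3a is deleted in the muscle fibres of these mice, so that they are not replicates of the WT comparison. A difference that does not return in them cannot be told apart from an effect of the genotype. Of the 100 WT clusters of lowest p, 55 had the same sign of the difference in KO, of the 500 of lowest p 249, and of all 51038 clusters 49.9%. An unadjusted p under 0.05 in both genotypes was found at 87 clusters, 4.65% of those in WT and 5.69% of those in KO, and 45 of the 87 went the same way. Across clusters the differences of WT and KO had a Pearson r of 0.0107, given as a description over 51038 clusters measured in the same libraries. The KO comparison itself called 0 clusters (1530 at an unadjusted p under 0.05, or 3%). Of the 16 named clusters 7 had the same sign in KO. Sdsl was among them, with 58.5% in KO at rest and 75.2% at 60 min (unadjusted p = 0.0143 in edgeR), next to 50.8% and 70.2% in WT.

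The difference between the effects in WT and KO was tested directly. With the edgeR quasi-likelihood test 0 of 51038 clusters (0%) had an adjusted p under 0.05, with 1715 at an unadjusted p under 0.05 (3.36%), and the likelihood ratio test called 53 (0.104%). The lowest adjusted p, 0.0647, belonged to a CpG assigned to no gene (chromosome 16, 53512669, 20 to 69 calls per WT sample), named after its values were seen. It had 61.9% ± 26.5 at rest and 98.6% ± 1.67 at 60 min in WT, and 93.8% and 55.8% in KO. Of the 16 named clusters 10 had an unadjusted p under 0.05 for this difference and 0 an adjusted one. Since they were chosen on the WT effect, these p-values are not independent of the choice. At Ptpn3 the effects were 32.0 points in WT and -3.01 in KO (95% interval of the difference 11.1 to 58.8), and at Habp4 -12.7 and -0.165 points (interval -20.5 to -4.57). The rested groups differed at both. Ptpn3 had 1.94% in WT and 13.2% in KO at rest, and Habp4 21.4% and 5.2%. Ndrg4 had 71.6% in WT at rest and 42.8% at 60 min, against 39.55% in KO at rest. At Lefty2 the rested groups were close, with 7.75% in WT and 6.59% in KO.

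The muscles taken at 10 and 30 min were compared with the same 5 rested samples, so that those values are not independent of the 60 min comparison and are only set side by side. They also came from other sample numbers (above 25) than rest and 60 min. Among the named clusters without overlap at 60 min, Ptpn3 had 10.4% at 10 min and 17.7% at 30 min, Cacna1c 16.3% and 13.7%, Bcl9l 12.0% and 12.9%, and Habp4 15.7% and 9.21%. Of all 16 named, 15 lay on the side of 60 min at both times, which the shared rested samples made likely. Ptp4a3 did not, with 2.91% and 22.9% against 17.6% at rest. Some of the 15 hardly moved, such as Dpf3 (95.4% and 94.9%, against 96.8%) and Lefty2 at 10 min (7.14%, against 7.75%). Against rest, 0 clusters were called at 10 min (2189 at an unadjusted p under 0.05, or 4.29%) and 0 at 30 min (1617, or 3.17%).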

How the data were processed

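RRBS libraries were made from MspI-digested DNA of 1 soleus per sample. The deposited values are counts: for each CpG of the autosomes, the authors gave methylated and unmethylated read counts, summed over strands, keeping sites with 8 reads or more throughout, and dropped samples that had too few aligned reads. Per the labels and the submitters' processing notes, reads were trimmed with Trim Galore 0.4.0 and cutadapt 1.9.1 and aligned with Bismark 0.18.1 to mm10. Clusters (gap of at most 100 bp), promoters and gene bodies are those assigned by the authors.

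From these counts, levels were computed as percent of calls, and log2 odds ratios were fitted over all groups with edgeR 4.0.16 (quasi-likelihood, R 4.3.3), as log2 methylated to unmethylated ratios of WT 60 min against WT rest. The dispersion was estimated on every 10th cluster, 5th promoter or gene body and 40th CpG, and fits without a sample took the common dispersion of the full fit. Limma 3.58.1 gave the alternative test and the 95% intervals of percent levels. P-values were adjusted by Benjamini-Hochberg over all features of a kind. Tests were checked on simulated data with independent samples and the same setting of extra spread for every cluster. There the likelihood ratio test made many more false calls than the quasi-likelihood test or limma, so that its calls are given only as an alternative. Whether the real data had such a spread was not tested, so that the rate of false calls here is not known. Single values were compared by exact permutation tests, two-sided, in Python 3.11.15. The p-values and intervals of edgeR and limma take their spread from all 44 samples in 8 groups, each sample from 1 muscle. Those of the exact permutation tests rest on the 11 samples. Fitted to the 11 alone, edgeR gave larger unadjusted p-values at some named clusters and smaller ones at others. They were 0.013 at Mak and 0.0148 at Ndrg4, and 0.000269 at Bcl9l and 0.00044 at Cacna1c. In the fit of all groups they were 0.00194, 0.00298, 0.00236 and 0.00623. Calls are not independent molecules, since RRBS has no molecular identifiers, and limits at a count of 0 (3 counts of the group's total) cover counting error only. Where a group was at 0, no fold is given.

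Islands were called on GRCm38 (window 200 bp, GC fraction 0.5, observed to expected CpG 0.6), with shores of 2000 bp, and exons, introns and untranslated regions come from GENCODE M21. Sequences are from the RefSeq copy of GRCm38. Clusters named had at least 3 CpGs, 30 calls in each sample, 5 points of difference and an assigned gene, and were the 8 of lowest unadjusted p in each direction. For promoters and gene bodies these were the 3 of lowest p in each direction, and for gene lists 8 preset genes and up to 3 of lowest p per list. The samples and gene lists were chosen with earlier results of these data known.

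Alternatives were the likelihood ratio test, limma, fits of 2 groups or of all WT samples, a term for sex, a minimum of 20 calls, clusters with a gap of 50 bp, clusters of 3 or more CpGs or of intermediate level, and leaving out each sample. Sample 7, whose title and genotype label disagree, and sample 5, labelled WT at 60 min, were not analysed here, and the values of 1 named cluster and 1 marker promoter are not reported here. All value columns were mapped to samples.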

Additional observations from a re-analysis of the deposited data

Results flagged for a closer look

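Of 45 groups of values examined, 9 held a sample that stood well away from its group, by its gap relative to the group's range. A rate of 1 in 20, or 2.25 of them, would hold only for independent values of a normal distribution. The values here are not of that kind. The principal components were set by single samples, and the named clusters were chosen by p-value, several lying near a limit of the level. The count of 9 can therefore not be read as an excess over 2.25. On the principal components of CpG fractions, the rested sample 13 had 53.3 on the first and the rested sample 11 had 52.7 on the second, against group medians of -6.97 and -2.91. The share of CpGs above 80% was 16.8% in sample 25 at 60 min, against a median of 15.6%.

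The other 6 values belong to named clusters at 60 min. Sample 25 had 76.8% at Ptpn3 (median 26.8%) and 11.3% at Ptp4a3 (median 1.46%), sample 16 had 65.6% at Dpf3 (median 91.0%) and 8.15% at Lefty2 (median 1.22%), sample 22 had 60.7% at Serpina1b (median 80.6%), and sample 9 had 19.0% at Ttc39b (median 2.99%). These clusters were chosen by their p-value in these samples. Without each sample in turn their log2 odds ratios kept their sign, which that choice made likely. The log2 odds ratio of Ptpn3 ran from 4.56 to 6.00.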

How the results depend on the processing

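No cluster, promoter or gene body was called by the quasi-likelihood test under any alternative run in it, and limma called none either. The likelihood ratio test called 53 clusters, 3 promoters, 131 gene bodies and 53 clusters for the difference between WT and KO. At an unadjusted p under 0.05 it gave 3935 clusters, 763 promoters, 1168 gene bodies and 11746 CpGs, against 1871, 393, 489 and 6820 in the quasi-likelihood test. Clusters of at least 3 CpGs gave 862 of 21536 (4%) and a minimum of 20 calls 1082 of 28165 (3.84%), shares near the 3.67% of all clusters. Leaving out each sample gave 1714 to 2223 clusters, 362 to 442 promoters and 438 to 537 gene bodies, with 0 called. Without samples 11 and 13, an alternative chosen after seeing the data, 1472 clusters, 324 promoters and 533 gene bodies had an unadjusted p under 0.05, and the difference in level was -5.05 points pooled (exact permutation test, p = 0.0952) and -0.611 unweighted (p = 0.238).

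In males alone the difference in level was 2.63 points pooled and 0.218 unweighted, opposite in sign to all samples. Leaving out each sample moved the pooled difference from -3.18 to 0.472 points and the unweighted one from -0.374 to 0.109. By context the ranges were -0.14 to 0.0592 for islands, -0.765 to 0.292 for shores, -0.933 to 0.151 for open sea, -0.0793 to 0.0143 for promoters, -0.317 to 0.109 for gene bodies and -0.678 to 0.137 between genes. The differences on the principal components ran from 5.86 to 17.7 for the first and from 6.46 to 21.3 for the second. These components were computed again each time and were not matched to those of all samples. The cause of these shifts was not tested. The 16 named clusters kept their direction under all 240 alternatives, and 3 passed the likelihood ratio test. They were chosen for their difference in these same samples, which made a kept direction likely. The likelihood ratio test also shares the estimate of the main test and cannot reverse it. The kept direction is therefore no support for these clusters. At intermediate levels the spread between samples limits what can be detected. No paired analysis was possible because the groups compared share no sample number.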
